A study of Mus musculus with 16 samples.

Results

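Iron enters a blood cell bound to transferrin through the transferrin receptor, leaves the endosome through a divalent metal transporter, and is then used in the mitochondria for haem and iron-sulphur clusters, stored in ferritin, or exported through ferroportin. A pair of RNA-binding proteins reads the iron level of the cell and binds short hairpins called iron-responsive elements: in iron-poor cells the pair blocks translation of messages that carry the hairpin in the 5′ UTR, and it stabilises the message of the transferrin receptor, which carries it in the 3′ UTR. In the bone marrow, developing red cells take up most of the iron, and macrophages recover it from the haem of old red cells. Genes of this route also respond to oxygen in other tissues, through the hypoxia-inducible factors HIF1 and HIF2.

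The 10 genes described here were chosen by name from both gene count tables of the series, out of 49585 gene identifiers. They cover uptake (Tfrc, Slc11a2, Slc11a1), delivery to mitochondria (Slc25a37), storage (Fth1, Ftl1), export (Slc40a1), haem breakdown (Hmox1) and the regulators that bind the hairpin (Aco1, Ireb2). All 10 were present in the tables and passed the filter on low counts in every comparison.

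The libraries were RNA sequencing libraries of neutrophils, short-lived white blood cells, isolated by cell sorting from the bones of C57BL/6 mice aged 8 to 12 weeks. There were 16 libraries in 4 groups of 4. P2KO is labelled Vav:cre-PHD2f/f, in which the oxygen-sensing enzyme PHD2 (gene Egln1) is deleted, and P2WT is its wild-type control. P2H2KO is labelled Vav:cre-PHD2/HIF2ff/ff, in which PHD2 and HIF2 (gene Epas1) are deleted together, and P2H2WT is its wild-type control. The Vav promoter drives Cre in blood-forming cells in general, so the deletions are not limited to neutrophils. The labels do not say whether the wild-type mice carry Cre or floxed alleles, whether animals were pooled, or which gates were used in the sort. Replicates are numbered as in the library titles, and no number is shared between groups. Because nothing states that libraries came from separate animals, p-values measure the spread between these libraries.

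Depth was even, from 23450746 to 28601284 counts per library. Every member was well above the counting limit: the lowest count of any of the 10 genes in any library was that of Aco1, 897. The 11 neutrophil markers examined (Ly6g, S100a8, S100a9, Camp and others) were present in every library. They summed to between 25385 and 67515 CPM (read counts scaled to a common library size, with a correction for composition), or 2.54% to 6.75% of the scaled library size. Red cell precursor markers were about as abundant. The 14 measured (globins, Alas2, Slc4a1 and others) summed to between 26150 and 52920 CPM, or 2.61% to 5.29% of the scaled library size, none of them at 0. The 13 macrophage markers summed to between 703 and 1381 CPM, again with none at 0. Marco, the lowest of them, ranged from 0.216 to 1.55 CPM. Several other lists summed higher than the macrophage list. The sums ran from 1633 to 4600 CPM for 7 monocyte markers and from 2422 to 5273 for 6 eosinophil and basophil markers. They ran from 2136 to 3783 CPM for 4 early granule markers and from 4697 to 7882 for 13 cell cycle markers. In bulk libraries fewer cells of a type and less RNA per cell cannot be told apart. Counts were per gene, so loss of single floxed exons could not be seen: Egln1 was at 49.5 ± 6.40 CPM in P2KO and 48.7 ± 2.21 in P2WT (SD, n = 4 each), and Epas1 was at 5.65 ± 2.17 CPM in P2H2KO and 3.56 ± 1.02 in P2H2WT. The genotype labels were therefore taken as given.

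The hairpins are shown first, as a description of the members' sequences. The pattern searched on the transcript strand was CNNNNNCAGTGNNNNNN in which the 5 bases before CAGTG pair with the 5 bases that follow the base after it, with G-U pairs allowed, in the annotated UTRs of GENCODE M21 on GRCm38 (mm10). It was found in 31 of 20971 protein-coding genes with a 5′ UTR (0.148%) and in 144 of 21769 with a 3′ UTR (0.661%). Capitals mark the hexaloop CAGTGN, which the regulators contact, and the flanks in lower case hold the stem. Both ferritin subunits and the exporter carried 1 copy each in the 5′ UTR, at chr19:9982732-9982760 (plus strand) in Fth1, chr7:45459779-45459807 (minus strand) in Ftl1 and chr1:45925465-45925493 (minus strand) in Slc40a1:

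Fth1: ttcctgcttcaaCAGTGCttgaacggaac

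Ftl1: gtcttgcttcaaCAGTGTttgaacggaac

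Slc40a1: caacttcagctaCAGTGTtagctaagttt

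Tfrc carried 4 copies in its 3′ UTR, on the plus strand at chr16:32631219-32631247, chr16:32631598-32631626, chr16:32631663-32631691 and chr16:32631710-32631738, in this order:

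Tfrc copy 1: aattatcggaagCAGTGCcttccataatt

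Tfrc copy 2: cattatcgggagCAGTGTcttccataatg

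Tfrc copy 3: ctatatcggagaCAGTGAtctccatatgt

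Tfrc copy 4: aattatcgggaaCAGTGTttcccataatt

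For the other 6 members, Slc11a2 among them, no match to the searched pattern with a fully paired stem was found in the annotated UTRs. Hairpins with an unpaired or extra base in that stem were not searched for. The lack of a match therefore does not show that a member lacks the element. A match is a description of the sequence, and protein binding and translation were not measured.

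Compared per length of exon, ferritin led the group. Over all 16 libraries, in CPM per kilobase of merged exons, Ftl1 (ferritin light chain) had a level of 551 ± 45.6 and Fth1 (ferritin heavy chain, which oxidises iron for storage) of 462 ± 46.3 (SD, n = 16). Slc25a37, or mitoferrin 1, the importer that brings iron into the mitochondria of red cell precursors, followed at 313 ± 68.8, and Tfrc, the transferrin receptor, at 239 ± 48.4. Hmox1, which opens the haem ring and frees its iron, was at 94.8 ± 21.9, and Slc40a1, or ferroportin, the iron exporter, at 34.1 ± 4.80. The lowest were the phagosomal metal transporter Slc11a1 (Nramp1) at 15.6 ± 3.15, the endosomal transporter Slc11a2 (DMT1) at 14.1 ± 2.57, and the regulators Ireb2 (IRP2) at 11.9 ± 0.490 and Aco1 (IRP1, an aconitase that binds RNA when it has lost its iron-sulphur cluster) at 10.2 ± 0.665. Slc11a1 and Slc11a2 differed by less than their spread. With the length of the principal transcript in place of merged exons, Fth1 (1073 ± 107) came before Ftl1 (762 ± 63.1) and Slc11a2 (29.7 ± 5.39) before Slc11a1 (25.0 ± 5.05), so neither of these orders is fixed by the data. The other places did not change.

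None of the 10 genes passed the test between PHD2-deficient libraries and their controls, or between PHD2 and HIF2 deficient libraries and theirs, with edgeR's quasi-likelihood test with Benjamini-Hochberg adjustment over all genes tested. The adjusted p was 0.99999 for each of the 10 in the first line and 0.9999 in the second. Few genes passed at all: 6 of 13734 in the first line (0.0437%) and 10 of 13435 in the second (0.0744%). At an unadjusted p under 0.05, 0 of the 10 were found in either line, against 3.49% and 2.63% of all genes, and DESeq2 called 0 of the 10 in both. The groups overlapped for all 10 genes in both lines, where 2.25% and 1.71% of all genes had groups without overlap. The median log2 fold change of the members was -0.02 in P2KO against P2WT, with 5 positive and 5 negative, beside 0.02 for all genes tested. In P2H2KO against P2H2WT it was -0.11, with 9 of 10 negative, beside 0.001 for all genes.

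**Figure D1:**
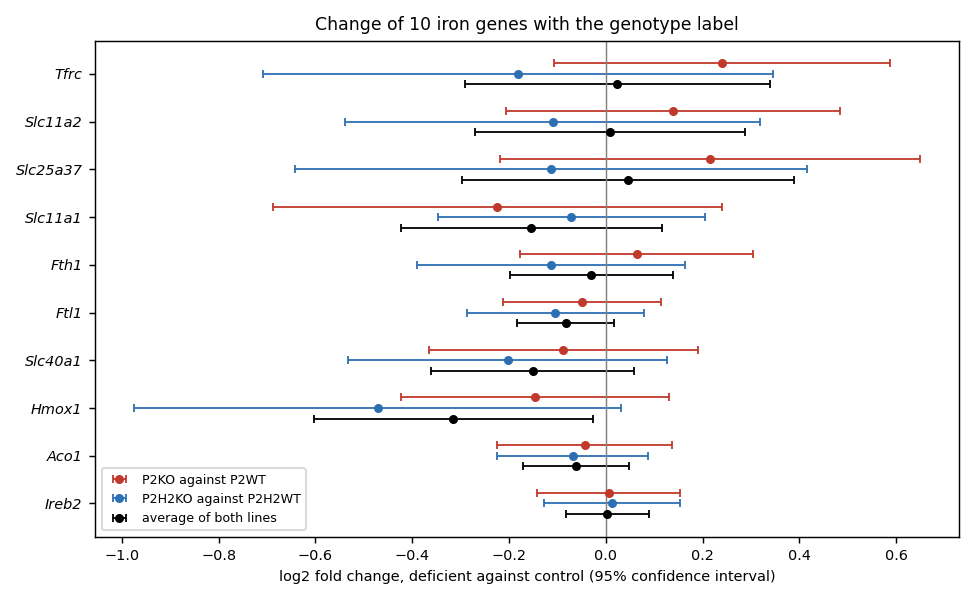
Log2 fold change (x axis) of each of the 10 genes (y axis) in P2KO against P2WT (red), P2H2KO against P2H2WT (blue) and the average of both effects (black), with 95% confidence intervals. The intervals of the 2 single lines include 0 for every gene, and the interval of the average leaves 0 out for Hmox1 only, from -0.60 to -0.03.

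Uptake and mitochondrial delivery varied widely between libraries. For Tfrc, Slc25a37 and Hmox1 the highest library was 2.29, 2.33 and 2.34 times the lowest. Tfrc (ENSMUSG00000022797, chr16:32608920-32632794, plus strand) was at 1589, 1866, 1308 and 1567 CPM in P2KO replicates 1, 5, 6 and 9, and at 1404, 1679, 1119.6 and 1195 in P2WT replicates 3, 4, 7 and 10. P2KO replicate 6 lay within the control range and the other 3 were in its upper part or above it. The means were 1583 ± 228 and 1349.6 ± 251, a log2 fold change of 0.24 (SE 0.15, 95% confidence interval -0.11 to 0.59). In the other line Tfrc was at 1963, 1533.5, 857 and 1247 CPM in P2H2KO replicates 11, 12, 15 and 17, and at 1706, 1861, 1427 and 1363 in P2H2WT replicates 13, 14, 16 and 18. The deficient libraries held both the highest and the lowest value of the 8. The log2 fold change was -0.18 (SE 0.23, interval -0.71 to 0.34).

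Slc25a37 (ENSMUSG00000034248, chr14:69241848-69285112, minus strand) followed the same libraries. It was at 2196, 2567, 1464 and 2162 CPM in P2KO and 1889, 2302, 1532 and 1549.7 in P2WT, in the replicate order given for Tfrc. It was at 2387, 2059, 1099.6 and 1432 CPM in P2H2KO and 1938, 2272, 1631 and 1719 in P2H2WT. P2KO replicate 6 and P2H2KO replicate 15 were again the lowest of their groups, with a log2 fold change of 0.22 (SE 0.19) in the first line and -0.11 (SE 0.23) in the second. Slc11a2 (ENSMUSG00000023030, chr15:100387898-100425072, minus strand) was at 103, 108, 69.7 and 111 CPM in P2KO and 88.2, 108, 79.8 and 81.2 in P2WT. It was at 106, 94.6, 56.5 and 74.9 CPM in P2H2KO and 95.3, 106, 77.1 and 79.9 in P2H2WT. The same 2 deficient libraries were lowest, with a log2 fold change of 0.14 (SE 0.15), then -0.11 (SE 0.19).

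Slc11a1 (ENSMUSG00000026177, chr1:74375195-74386062, plus strand), which moves metal ions out of the phagosome in neutrophils and macrophages, ran the other way. It was at 46.3, 38.9, 68.5 and 39.4 CPM in P2KO and 50.2, 50.6, 52.9 and 73.7 in P2WT. P2KO replicate 6, lowest for the 3 genes above, was highest of its group here. It was at 56.9, 50.3, 70.5 and 69.1 CPM in P2H2KO and 63.0, 57.5, 63.4 and 75.5 in P2H2WT. The groups overlapped in both lines, with log2 fold changes of -0.22 (SE 0.21) and -0.07 (SE 0.12).

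**Figure D2:**
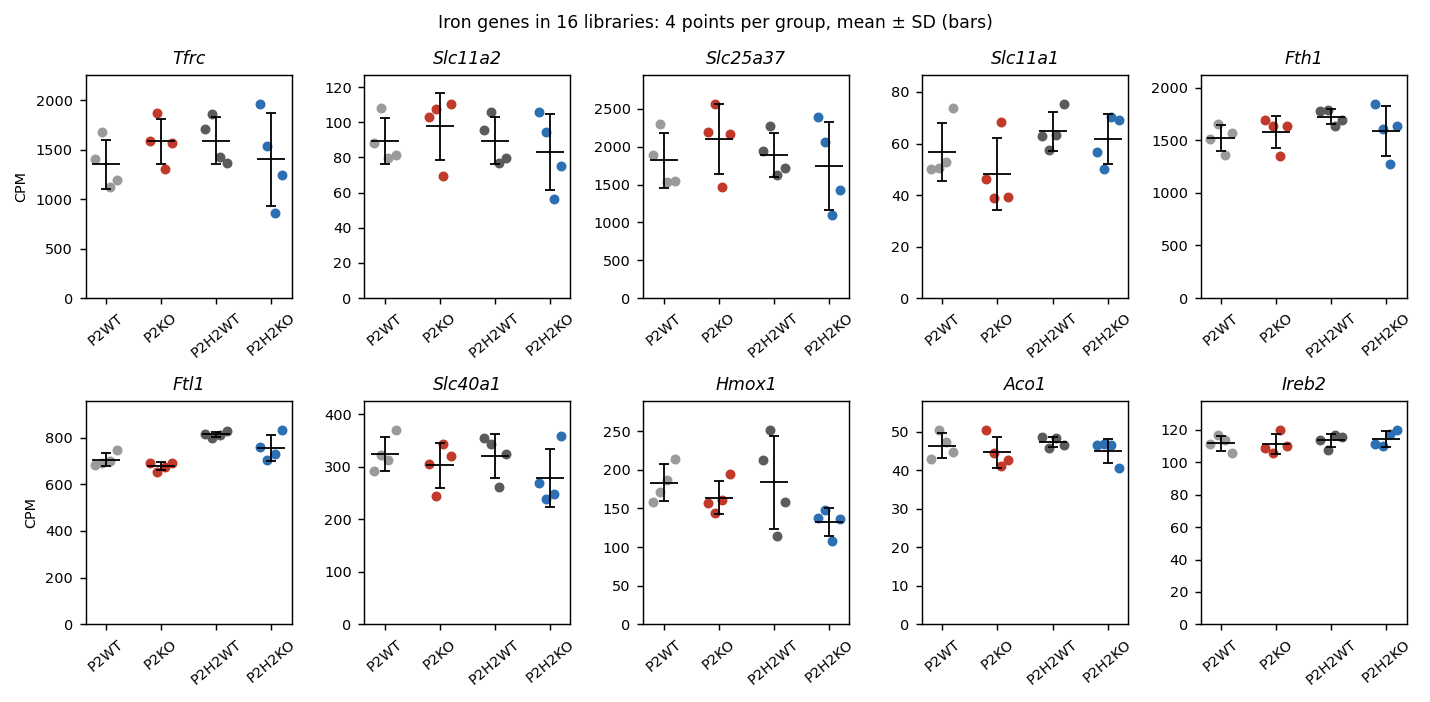
CPM (y axis, from 0) of each gene in the 4 libraries of each group (points, in order of replicate number), with the group mean and SD (black bars). Tfrc, Slc11a2 and Slc25a37 spread widely within groups, Aco1 and Ireb2 stay within 40.5 to 50.4 and 106 to 120 CPM, and Ftl1 is the only gene whose P2WT and P2H2WT points do not overlap.

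The storage genes spread less. Fth1 (ENSMUSG00000024661, chr19:9980598-9985098, plus strand) was at 1689, 1638, 1353 and 1639 CPM in P2KO and 1508, 1657, 1359 and 1566 in P2WT. It was at 1847, 1606, 1272 and 1637 CPM in P2H2KO and 1774, 1784, 1634 and 1693 in P2H2WT. P2KO replicate 6 and P2H2KO replicate 15 were lowest in their groups, with a log2 fold change of 0.06 (SE 0.11), then -0.11 (SE 0.12). Ftl1 (ENSMUSG00000050708, chr7:45457944-45459884, minus strand) was at 689, 654, 672 and 691 CPM in P2KO and 683, 691, 701 and 747 in P2WT. It was at 759, 706, 729 and 832 CPM in P2H2KO and 816, 799.7, 809 and 828 in P2H2WT. Its log2 estimates, -0.05 (SE 0.07) and -0.10 (SE 0.08), were small, and the 95% intervals, from -0.21 to 0.11 and from -0.29 to 0.08, were among the narrowest. Near-identical copies took few counts: the processed pseudogenes and other loci that resemble Ftl1 at 90% identity or more had 0 to 19 counts per library, and Gm6977, which resembles Fth1, had 17 to 41. Gm10252, on the strand opposite to Ftl1 and overlapping 355 of its exon bases, had 1 to 10. How reads that fit several copies were counted is not given in the sources used here, so ferritin levels carry that uncertainty.

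For export and haem breakdown the estimates were negative in both lines, and none passed the adjusted test. Hmox1 (ENSMUSG00000005413, chr8:75093621-75100589, plus strand) was at 157, 144, 161 and 195 CPM in P2KO and 159, 172, 187 and 214 in P2WT. It was at 138, 149, 107 and 136 CPM in P2H2KO and 212, 252, 114 and 158 in P2H2WT. In the second line 3 of 4 controls were above every deficient library and P2H2WT replicate 16 was not. The log2 fold changes were -0.15 (SE 0.12) and -0.47 (SE 0.22, interval -0.97 to 0.03, unadjusted p = 0.0627 by edgeR), a fold of 0.903 and 0.721. Slc40a1 (ENSMUSG00000025993, chr1:45908068-45926523, minus strand) was at 305, 244, 344 and 319.8 CPM in P2KO and 293, 323, 313 and 370.0 in P2WT. It was at 269, 239, 249 and 358 CPM in P2H2KO and 355, 343, 262 and 324 in P2H2WT. P2H2KO replicate 17 stood above the other 3 of its group, and the estimates were -0.09 (SE 0.12) and -0.20 (SE 0.15) in log2.

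The regulators varied little over the 16 libraries. Ireb2 (ENSMUSG00000032293, chr9:54863789-54912530, plus strand) ranged over the 16 libraries from 106 to 120 CPM, with a coefficient of variation within groups between 3.73% and 5.38%, and the estimate was 0.01 in each line (SE 0.07 and 0.06). Aco1 (ENSMUSG00000028405, chr4:40143081-40198338, plus strand) ranged from 40.5 to 50.4 CPM, with a coefficient of variation within groups between 2.84% and 9.18% (1.46% to 7.27% for Ftl1), and had log2 estimates of -0.04 (SE 0.08) and -0.07 (SE 0.07). The 95% intervals of Ireb2 spanned -0.14 to 0.15 in the first line and -0.13 to 0.15 in the second. Those of Aco1 spanned -0.22 to 0.14 and -0.23 to 0.09.

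Whether the effect differed between the lines was tested in all 16 libraries together. Of the 10 members 0 passed the adjusted test, as did 0 of 14080 genes (0%). In simulated counts this test called 20% of genes given a log2 difference of 0.5 and 72% of those given 1. At an unadjusted p under 0.05, 0 of the 10 and 1.51% of all genes were found. The largest estimate was that of Tfrc, 0.41 (SE 0.30, interval -0.22 to 1.04). The interval leaves room for a difference of more than 2-fold, so Tfrc in the 2 lines was not shown to be alike or different.

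The average of the 2 effects, each against its own controls, was estimated from all 16 libraries. No member passed the adjusted test, where 24 of 14080 genes did (0.170%). Hmox1 was the only member with an unadjusted p under 0.05 (3.72% of all genes), at a log2 fold change of -0.31 (SE 0.14, interval -0.60 to -0.03, unadjusted p = 0.0342, adjusted p = 0.9998, edgeR). Leaving out 1 library at a time moved this value between -0.40 and -0.22, the first without P2H2WT replicate 16 and the second without P2H2WT replicate 14. Macrophage markers moved with it. In P2KO against P2WT 12 of 13 had a negative log2 fold change, with a median of -0.29. In P2H2KO against P2H2WT 13 of 13 did, with a median of -0.45. Monocyte markers were negative for 7 of 7 in the first line (median -0.25) and positive for 5 of 7 in the second (median 0.03). In the average of both lines Siglec1 (-0.65, SE 0.11, adjusted p = 0.0259, edgeR) and Marco passed the adjusted test. The sum of all 13 macrophage markers ran from 822 to 1314 CPM in P2KO and 1183 to 1381 in P2WT, and from 703 to 962 in P2H2KO and 991 to 1275 in P2H2WT, where the groups did not overlap. With the macrophage score (the mean log2 CPM of these markers in each library) as a covariate, the average for Hmox1 was 0.02 (SE 0.19). In the second line the value was 0.19, and its SE was 0.42 in place of 0.22, in groups that do not overlap in macrophage level. Slc40a1 averaged -0.15 (SE 0.10), and 0.04 with the same covariate. The change was not particular to Hmox1 and Slc40a1. In the second line the covariate also turned Tfrc to 0.20, Slc11a2 to 0.24, Slc25a37 to 0.19, Fth1 to 0.12 and Ftl1 to 0.037. Slc11a1, Aco1 and Ireb2 kept their signs there. Fth1 averaged 0.15 with the covariate. The part of macrophage content in these values was not tested.

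Across libraries of the same group the members split into sets that followed different cell markers. Each member's log2 CPM was centred on its group mean and correlated, over the 16 libraries, with the centred score of a marker list (the mean log2 CPM of its genes). There were 30 relations for the erythroid, macrophage and cell cycle scores, tested by 100000 permutations within groups and adjusted together. The neutrophil score was added after the data had been seen, as 10 more relations adjusted among themselves. All points of a relation share their library, so they share its cell content and its scaling.

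Tfrc, Slc11a2, Slc25a37 and Fth1 followed the erythroid score. Pearson's r was 0.99 for Slc11a2 (rho 0.98, permutation p = 5e-05, adjusted 0.000375), and 0.97 for Slc25a37 (rho 0.95, p = 4e-05, adjusted 0.000375). It was 0.94 for Tfrc (rho 0.97, p = 2e-05, adjusted 0.000375) and 0.91 for Fth1 (rho 0.86, p = 0.00038, adjusted 0.00163). Each held within both lines: the lowest value within a line was 0.89, for Tfrc in P2KO and P2WT. Without P2H2KO replicate 15 and P2KO replicate 6, which had the lowest erythroid sums of all libraries at 26150 and 26356 CPM, r was 0.98, 0.96, 0.96 and 0.81 in the order above. These 4 genes followed the cell cycle score as well, with r from 0.85 to 0.99, and the data do not separate the 2 scores. The erythroid markers also moved with the genotype label, with 14 of 14 log2 fold changes positive in P2KO (median 0.13) and 14 of 14 negative in P2H2KO (median -0.15), none past the adjusted test. Over all genes tested, 7936 of 13734 were positive in the first line and 6644 of 13435 were negative in the second. The 4 members had the directions of the erythroid markers in each line. With the erythroid score as a covariate, the log2 fold change of Tfrc was 0.19 (SE 0.08) in the first line and -0.03 (SE 0.06) in the second. That of Slc25a37 was 0.13 (SE 0.06) in the first line and 0.04 in the second. That of Slc11a2 was 0.06 (SE 0.05), then 0.03. With the cell cycle score as a covariate, the first-line values were 0.16 for Tfrc, 0.08 for Slc25a37, 0.0094 for Slc11a2 and 0.0097 for Fth1. In P2KO 12 of 13 cell cycle markers were positive (median 0.09), and in P2H2KO 12 of 13 were negative (median -0.03). Both scores moved with the genotype label, and the part of erythroid content or of dividing cells in these values was not tested.

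**Figure D3:**
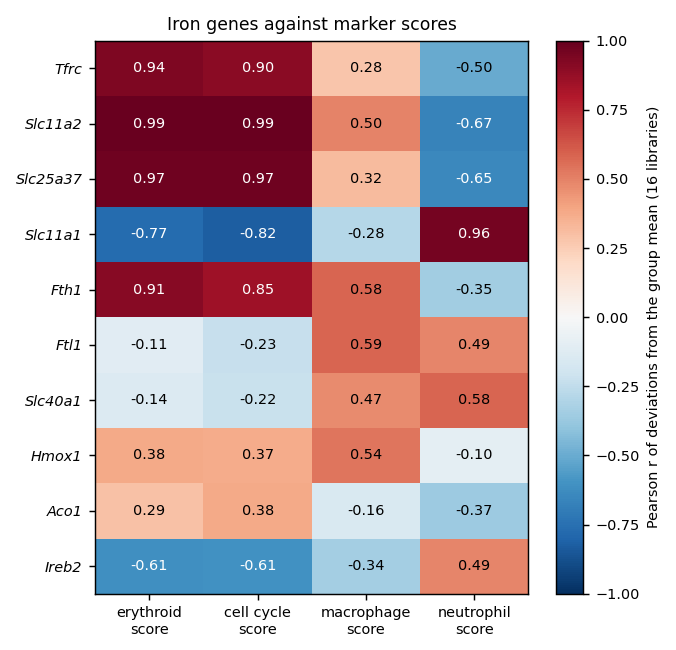
Pearson r between each gene (rows) and each marker score (columns) over the 16 libraries, both as deviations from the group mean of log2 CPM, with red for positive and blue for negative values. Tfrc, Slc11a2, Slc25a37 and Fth1 reach 0.91 to 0.99 with the erythroid score, Slc11a1 reaches 0.96 with the neutrophil score, and the other genes stay weaker.

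Slc11a1 followed the neutrophil score instead, with r = 0.96 (rho 0.91, permutation p = 0.00041, adjusted 0.0041). It ran against the erythroid score at r = -0.77 (rho -0.73, permutation p = 0.00362, adjusted 0.0109). Against the cell cycle score r was -0.82 (rho -0.78, permutation p = 0.00074, adjusted 0.00277). Without P2H2KO replicate 17 and P2KO replicate 6, the libraries richest in neutrophil markers, the first r was 0.94, and within the lines it was 0.96 and 0.94. The scores are all made from shares of the same library total. With the neutrophil score as a covariate, the average effect on Slc11a1 was -0.19 with a standard error of 0.04 in place of 0.13 (unadjusted p = 0.000497, adjusted p = 0.113, edgeR). At this setting, chosen after the data had been seen, 678 of 14080 genes had an unadjusted p under 0.05. The adjusted test called 44 genes, and Slc11a1 was not among them.

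Ftl1 parted from Fth1. Its r with the erythroid score was -0.11 (rho -0.09, permutation p = 0.796, adjusted 0.796), although both subunits form one shell. Its highest r was with the macrophage score, 0.59, where the adjusted permutation p was 0.0655 for r and 0.0483 for rho of 0.66. Fth1 also had a rho of 0.72 with the macrophage score (adjusted permutation p = 0.0151), but its r of 0.58 did not pass (adjusted permutation p = 0.117). Hmox1 had r = 0.54 with the macrophage score (rho 0.67, permutation p = 0.0146, adjusted 0.0398), 0.52 without P2H2KO replicates 15 and 12, and 0.66 and 0.56 within the lines. Slc40a1, Aco1 and Ireb2 passed with no score. The strongest of theirs was -0.61 for Ireb2 with the erythroid score (rho -0.51, permutation p = 0.0345, adjusted 0.0796), which was -0.44 without P2H2KO replicate 15 and P2KO replicate 6.

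**Figure D4:**
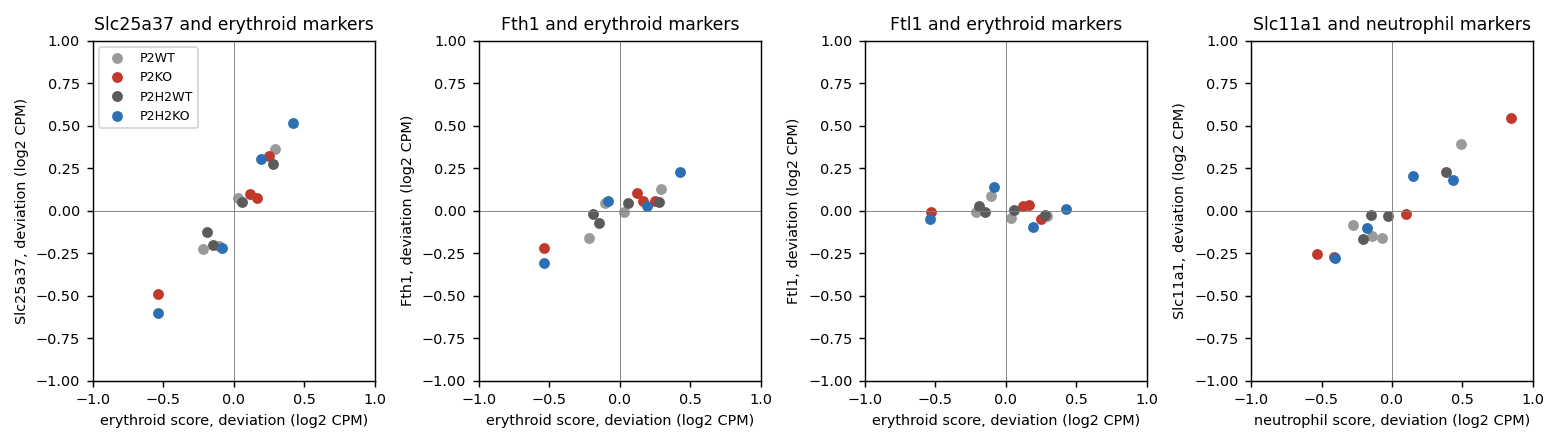
Deviation of log2 CPM from the group mean for Slc25a37, Fth1 and Ftl1 against the erythroid score and for Slc11a1 against the neutrophil score, 1 point per library, coloured by group. Slc25a37 spans -0.60 to 0.52, Fth1 spans -0.31 to 0.23 on the same libraries, and Ftl1 stays between -0.10 and 0.14.

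Set against each other in 45 pairs (added after the data had been seen), the members of the erythroid set went together. Slc11a2 and Slc25a37 had r = 0.97 (rho 0.90, permutation p = 5e-05, adjusted 0.00112), and Tfrc with Slc25a37 had 0.96 (rho 0.95, permutation p = 4e-05, adjusted 0.00112). Fth1 had 0.86 to 0.89 with the 3 of them. Slc11a1 ran against them, from -0.77 with Slc11a2 to -0.63 with Tfrc, where the adjusted permutation p was 0.0437, but with Fth1 r was -0.48 (adjusted permutation p = 0.232). Ftl1 and Hmox1, the members with the macrophage score as their strongest positive relation, had r = 0.18 (adjusted permutation p = 0.588). Slc40a1 and Ftl1 had r = 0.76 (permutation p = 0.00381, adjusted 0.0190), for which rho was 0.66 (adjusted 0.0603). Without P2H2KO replicate 17 and P2H2WT replicate 18 it was 0.64.

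The genes most like each member, among 9572 with a mean of at least 5 CPM, are given as a description over the 16 libraries. For Slc11a2 they were Mfsd2b, Hemgn and Aqp1 (r from 0.993 to 0.995), and for Slc25a37 Epb42, Trim10 and Metap2 (all 0.994). For Tfrc they were Fam213a, Cd24a and Ell2 (0.971 to 0.974), and for Fth1 Psmf1, Prkar2b and Gfi1b (0.964 to 0.972). For Slc11a1 they were Snrk, Dhrs9 and Vps37c (0.984 to 0.987). Between 158 genes (Fth1) and 741 genes (Slc11a2) had r over 0.9 with one of these 5 members, so the 3 named are the top of a long list. The remaining 5 stood more alone, with 0 or 1 gene over 0.9. Nearest to Ftl1 were Tmem134, Cd63 and Mogat2 (0.914 to 0.855), and to Hmox1 Rnf181, Gpd1 and Igkv1-110 (0.941 to 0.847). Nearest to Slc40a1 were Mpzl1, Rtkn2 and Serpinb6a (0.871 to 0.834). Nearest to Aco1 were Cisd2, Ogfod2 and Shld1 (0.872 to 0.827), and to Ireb2 Ube3a, Ndufaf8 and Exoc5 (0.883 to 0.842).

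The 2 sets of wild-type controls were compared as a gauge of how far the lines differ apart from the deletions. Epas1, the gene deleted in the second line, itself was higher in P2WT, at 10.03 ± 1.40 against 3.56 ± 1.02 CPM (log2 fold change 1.49, SE 0.19, adjusted p = 0.00764, edgeR), with groups that did not overlap. No member passed, where 166 of 13593 genes did (1.22%). Ftl1 came nearest and was the only member whose groups did not overlap, with 683 to 747 CPM in P2WT and 799.7 to 828 in P2H2WT, or 706 ± 28.7 and 813 ± 11.9 (SD, n = 4 each). Over all genes, 7.81% had groups without overlap. Its log2 fold change was -0.21 (SE 0.07, interval -0.35 to -0.06, unadjusted p = 0.00979, adjusted p = 0.231, edgeR), while 11.4% of all genes had an unadjusted p under 0.05. DESeq2 called it (adjusted p = 0.000668), with 419 of 13591 genes called in all, as did edgeR with the erythroid score as a covariate (adjusted p = 0.0469), with 422 of 13593. With the cell cycle score as a covariate Tfrc was called instead, at -0.31 (adjusted p = 0.0163, edgeR), with 333 of 13593. Cell type markers moved between the controls too. Over all genes tested, the log2 fold change was negative for 7261 of 13593. It was negative for 11 of 11 neutrophil markers (median -0.19) and 7 of 7 monocyte markers (median -0.21), none past the adjusted test. It was also negative for 6 of 6 eosinophil and basophil markers (median -0.28) and 11 of 14 erythroid markers (median -0.12), none past it. It was positive for 12 of 13 macrophage markers (median 0.25, 1 past it). It was positive for 5 of 5 endothelial markers (median 1.80, 4 past it) and 5 of 5 stroma markers (median 1.68, 1 past it). Their part in the value of Ftl1 was not tested, apart from the covariates given. The lines came in separate tables, and line, table and any difference in handling cannot be told apart.

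The library titles end in m (10 libraries) or f (6), letters the labels do not explain. With group as a covariate, no member passed the adjusted test for this letter, where 23 of 14080 genes did (0.163%). Tfrc was at 1627 ± 227 CPM in m and 1235 ± 247 in f (log2 difference 0.37, SE 0.13, unadjusted p = 0.0122, adjusted p = 0.180, edgeR). Slc25a37 was at 2079 ± 333 CPM in m and 1568 ± 345 in f (0.40, SE 0.14, unadjusted p = 0.0141, adjusted p = 0.188, edgeR). At this unadjusted threshold 17.5% of all genes were found. The erythroid markers had positive log2 differences for 14 of 14 (median 0.23), beside 6847 of 14080 of all genes. Other lists were as one-sided. Cell cycle markers were positive for 12 of 13 (median 0.11). Negative values were found for 13 of 13 macrophage markers (median -0.11) and 7 of 7 monocyte markers (median -0.29). The same held for 4 of 4 early granule markers (median -0.20) and 5 of 5 endothelial markers (median -0.82). With the erythroid score as a covariate as well, Tfrc differed by 0.15 and Slc25a37 by 0.13. The part of erythroid or other cell content in these differences was not tested. Slc25a37 was called by edgeR without P2KO replicate 6 (0.45, adjusted p = 0.0424), where 470 of 14248 genes were called in all, and without P2KO replicate 9 (0.52, adjusted p = 0.0462), where 1066 of 14237 were. With the macrophage score as a covariate edgeR called Tfrc (0.47, adjusted p = 0.0202), Slc11a2 (0.38, adjusted p = 0.0204) and Slc25a37 (0.51, adjusted p = 0.0184), all higher in m, among 1926 of 14080 genes called. With the neutrophil score it called Slc25a37 (0.37, adjusted p = 0.0366), among 854 of 14080.

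A wider list of 66 other iron genes was examined in the same way. It covers carriers, ferritin turnover, haem handling, iron-sulphur cluster assembly and hepcidin control, and 57 of them could be tested in each line. None passed the adjusted test of edgeR in either line, where at an unadjusted p under 0.05 there were 1 and 4 of the 57, against 3.49% and 2.63% of all genes. DESeq2 called 0 in both lines. In P2KO against P2WT 32 were positive and 25 negative, with a median log2 fold change of 0.02. The smallest p among those lower was that of Lrp1, a scavenger receptor that takes up haem with its carrier, at 254 ± 20.9 against 312 ± 23.3 CPM (-0.29, SE 0.09, unadjusted p = 0.00969, edgeR), followed by Hfe, a regulator of hepcidin (-0.20, SE 0.10). Among those higher it was Ciao1, of cytosolic iron-sulphur assembly (0.09, SE 0.06), followed by Tmprss6 (0.51, SE 0.37), at under 1 CPM on average.

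In P2H2KO against P2H2WT 21 of the 57 were positive and 36 negative, with a median of -0.05. Over all genes tested 6644 of 13435 were negative. The genes of mitochondrial iron and iron-sulphur clusters had negative values in 15 of 19 (median -0.09). In the first line 13 of 19 had been positive, beside 7936 of 13734 of all genes. Of the 19, 0 had an unadjusted p under 0.05 in either line or in the difference of effects. In the second line negative values were also found in 5 of 6 haem handling genes and 3 of 4 storage genes and chaperones. The same held for 8 of 16 uptake genes and carriers and 5 of 12 regulators. Cd163, the receptor that macrophages use for haemoglobin, was at 51.0 ± 2.27 against 59.6 ± 5.31 CPM (-0.22, SE 0.08, unadjusted p = 0.0186, edgeR), and it is also one of the macrophage markers. Blvra, which reduces the biliverdin made by haem oxygenase, was at 32.4 ± 1.03 against 36.7 ± 1.82 CPM (-0.18, SE 0.06, unadjusted p = 0.0218, edgeR). Fbxl5, the ubiquitin ligase subunit that removes IRP2 when iron is plentiful, was at 106 ± 1.88 against 94.0 ± 5.53 CPM (0.17, SE 0.06, unadjusted p = 0.0281, edgeR). The groups of these 3 genes did not overlap. They were picked by the smallest p in each direction, which favours groups without overlap. The share of 1.71% over all genes is therefore no fair gauge of them. Bmp6, the signal for hepcidin, was at 1.55 ± 0.347 against 1.04 ± 0.232 CPM (0.56, SE 0.23, unadjusted p = 0.0396, edgeR). The adjusted p was 0.9999 for all 4.

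Between the controls, 2 of the 57 passed, beside 1.22% of all genes, and both were higher in P2WT. The endothelial and stroma markers given above had positive values in the same comparison, and their part in this was not tested. Cp, ceruloplasmin, the plasma ferroxidase, was at 6.30 ± 0.652 CPM in P2WT and 3.29 ± 0.834 in P2H2WT (log2 fold change 0.94, SE 0.17, adjusted p = 0.0360, edgeR). Bmp6 was at 2.22 ± 0.389 and 1.04 ± 0.232 CPM (1.08, SE 0.21, adjusted p = 0.0427, edgeR). With any 1 of the 8 libraries left out, 0 or 1 of the 57 passed.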

How the data were processed

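The 16 RNA libraries came from neutrophils sorted from mouse bones, per the labels and the series' design text, and were prepared with Illumina protocols, per the labels' protocols. The authors deposited 2 tables of raw read counts per Ensembl gene, 1 for each line, per the file headers. HTSeq and the mm10 genome are named in the submitters' processing notes. Which aligner, gene annotation and strand setting were used is not given in the sources used here. Values were whole numbers, with no normalization. Symbols from GENCODE M21 matched 49326 of 49585 identifiers, and the 259 others, at 0.00714% of counts, were kept.

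Counts were fitted with edgeR 4.0.16 (filterByExpr on the groups, TMM, robust quasi-likelihood, two-sided), each line and the pair of control groups on their own 8 libraries, and all 16 together for the difference, the average and the title letter. The Benjamini-Hochberg method was applied to every gene in the fit, and an adjusted p under 0.05 was called. CPM came from the 16-library fit. Standard errors and 95% confidence intervals follow from the estimate and its F statistic. Scores were mean log2 CPM with a prior count of 2. R 4.3.3, limma 3.58.1, DESeq2 1.42.0, blastn 2.17.0 and Python 3.11.15 were used. The fits and the permutation test were tested on simulated data. Alternatives were RLE and upper-quartile factors, no filter, a minimum of 10 counts, DESeq2, covariates, the dispersion of all libraries and leaving out each library. Members, lists and alternatives were chosen with earlier results of these data known. Named were the members, Egln1 and Epas1, the 3 genes most like each member (predicted genes and other members left out), listed iron genes past the threshold or with the 2 smallest p in each direction in a line, copies and overlapping genes. Siglec1, Marco and the genes of the closing observations were named after their values were seen. Depth was 23450746 to 28601284 counts per library.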

Additional observations from a re-analysis of the deposited data

Results flagged for a closer look

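In 3 of 40 sets of 4 libraries (10 genes in 4 groups) 1 library stood apart from the other 3 by more than the 95% critical value of Dixon's ratio. Chance alone gives about 1 in 20 such sets. Slc11a1 was at 73.7 CPM in P2WT replicate 10, above the 50.2 to 52.9 of the other 3. Fth1 was at 1353 CPM in P2KO replicate 6, below the 1638 to 1689 of the others. Aco1 was at 40.5 CPM in P2H2KO replicate 17, below the 46.6 to 46.8 of the others. Beside these values, P2WT replicate 10 had the highest summed neutrophil markers of its group (50014 CPM), P2KO replicate 6 had the lowest summed erythroid markers of its group (26356 CPM), and P2H2KO replicate 17 had the highest summed neutrophil markers of all 16 libraries (67515 CPM). The part of these markers in the 3 values was not tested.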

How the results depend on the processing

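No member passed the adjusted test in P2KO against P2WT, P2H2KO against P2H2WT, their difference or their average under any alternative that was run. Under other settings 7 member estimates changed sign in the first line and 103 kept it, and 13 changed and 97 kept it in the second. With 1 library left out, 4 changed and 76 kept it in the first line, and 6 changed and 74 kept it in the second. No paired analysis was possible because the groups share no replicate numbers. The neutrophil score, the member pairs and the principal transcript length were chosen after seeing the data. The 30 relations of members with the erythroid, macrophage and cell cycle scores kept their direction and call with a prior count of 0.5 and with RLE size factors. The lowest count of a member in a library was 897, so depth limits the listed genes under 1 CPM more than the members. The cause of the changes below was not tested, beyond the fewer libraries or genes that a setting leaves.

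In P2KO against P2WT the count of all genes past the threshold went from 6 to 23 with DESeq2, 11 with the erythroid score as a covariate, 20 with the cell cycle score as a covariate, 14 with the neutrophil score as a covariate and 10 with the dispersion taken from all 16 libraries. In P2H2KO against P2H2WT the count of all genes past the threshold went from 10 to 42 with DESeq2, 16 with the erythroid score as a covariate, 1 with the macrophage score as a covariate and 26 with the cell cycle score as a covariate. In the average of effects the count of all genes past the threshold went from 24 to 65 with DESeq2, 50 with the erythroid score as a covariate, 13 with the macrophage score as a covariate, 57 with the cell cycle score as a covariate and 44 with the neutrophil score as a covariate. In P2WT against P2H2WT the count of all genes past the threshold went from 166 to 87 with a minimum of 10 counts in every library, 419 with DESeq2, 422 with the erythroid score as a covariate, 11 with the macrophage score as a covariate, 333 with the cell cycle score as a covariate and 32 with the dispersion taken from all 16 libraries. In title letter m against f the count of all genes past the threshold went from 23 to 58 with no filter on low counts, 9 with a minimum of 10 counts in every library, 435 with DESeq2, 1926 with the macrophage score as a covariate, 36 with the cell cycle score as a covariate and 854 with the neutrophil score as a covariate. For the wider iron list in P2WT against P2H2WT it went from 2 to 1 with a minimum of 10 counts in every library, 1 with the title letter as a covariate, 0 with the macrophage score as a covariate, 6 with the cell cycle score as a covariate and 0 with the dispersion taken from all 16 libraries. For the wider iron list in title letter m against f it went from 0 to 10 with the macrophage score as a covariate and 2 with the neutrophil score as a covariate. Leaving out 1 library at a time, the count of all genes ran from 6 to 9 in P2H2KO against P2H2WT, from 15 to 30 in the average of effects, from 76 to 167 in P2WT against P2H2WT and from 17 to 1066 in title letter m against f, and that of the wider iron list from 0 to 1 in P2WT against P2H2WT and from 0 to 2 in title letter m against f.

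With DESeq2, log2 fold changes of the opposite sign were, in P2KO against P2WT Ireb2 -0.0045. With RLE size factors, log2 fold changes of the opposite sign were, in P2KO against P2WT Ireb2 -0.0044. With a minimum of 10 counts in every library, log2 fold changes of the opposite sign were, in the average of effects Ireb2 -0.0012. With the cell cycle score as a covariate, log2 fold changes of the opposite sign were, in P2H2KO against P2H2WT Ireb2 -0.00082, in the difference of effects Aco1 -0.013 and Ireb2 0.0091, in the average of effects Tfrc -0.011, Slc11a2 -0.031 and Slc25a37 -0.0063. Further ones were, in title letter m against f Slc11a1 0.096, Fth1 -0.0022, Hmox1 -0.029 and Ireb2 0.015. With the dispersion taken from all 16 libraries, log2 fold changes of the opposite sign were, in P2KO against P2WT Ireb2 -0.0060. With the erythroid score as a covariate, log2 fold changes of the opposite sign were, in P2H2KO against P2H2WT Slc11a2 0.032, Slc25a37 0.035 and Ireb2 -0.0083, in the difference of effects Aco1 -0.0087 and Ireb2 0.011, in the average of effects Ireb2 -0.0034. Further ones were, in P2WT against P2H2WT Slc11a2 0.094, Slc25a37 0.048 and Hmox1 0.11, in title letter m against f Slc11a1 0.066, Fth1 -0.0059, Hmox1 -0.028 and Ireb2 0.014. With the macrophage score as a covariate, log2 fold changes of the opposite sign were, in P2KO against P2WT Hmox1 0.024 and Ireb2 -0.046, in P2H2KO against P2H2WT Tfrc 0.20, Slc11a2 0.24, Slc25a37 0.19, Slc40a1 0.32, Fth1 0.12, Ftl1 0.037 and Hmox1 0.19, in the difference of effects Ireb2 0.0014. Further ones were, in the average of effects Slc40a1 0.043, Fth1 0.15, Hmox1 0.019 and Ireb2 -0.041, in P2WT against P2H2WT Slc40a1 -0.21 and Ireb2 0.053, in title letter m against f Slc40a1 0.00040. With the neutrophil score as a covariate, log2 fold changes of the opposite sign were, in P2H2KO against P2H2WT Ireb2 -0.0086, in the difference of effects Aco1 -0.0057, in the average of effects Ireb2 -0.00076. With no filter on low counts, log2 fold changes of the opposite sign were, in P2KO against P2WT Ireb2 -0.00024, in the average of effects Ireb2 -0.0053. With the title letter as a covariate, log2 fold changes of the opposite sign were, in P2KO against P2WT Ireb2 -0.0039, in P2H2KO against P2H2WT Ireb2 -0.0079, in the difference of effects Aco1 -0.0068. Further ones were, in P2WT against P2H2WT Slc11a2 0.060, Slc25a37 0.019 and Hmox1 0.055.

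With 1 library left out at a time, log2 fold changes in P2KO against P2WT ran from -0.15 to 0.0042 for Slc40a1, -0.11 to 0.00011 for Aco1 and -0.032 to 0.029 for Ireb2. In P2H2KO against P2H2WT they ran from -0.14 to 0.015 for Slc11a1, -0.25 to 0.038 for Slc11a2, -0.30 to 0.055 for Slc25a37 and -0.016 to 0.032 for Ireb2. In the difference of effects they ran from -0.0027 to 0.081 for Ftl1, -0.069 to 0.052 for Aco1 and -0.056 to 0.0075 for Ireb2. In the average of effects they ran from -0.081 to 0.11 for Tfrc, -0.060 to 0.082 for Slc11a2, -0.049 to 0.13 for Slc25a37, -0.070 to 0.016 for Fth1 and -0.016 to 0.019 for Ireb2. In P2WT against P2H2WT they ran from -0.12 to 0.082 for Slc11a2, -0.20 to 0.040 for Slc25a37, -0.072 to 0.067 for Slc40a1, -0.18 to 0.18 for Hmox1 and -0.079 to 0.0017 for Aco1. In title letter m against f they ran from -0.18 to 0.022 for Slc40a1 and -0.12 to 0.19 for Hmox1.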

Other observations

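The wider iron list held genes whose proteins, in neutrophil granules or plasma, bind iron, siderophores or haemoglobin. Only their RNA was measured. Ltf, lactoferrin, was at 8191 ± 3834 CPM in P2KO and 8315 ± 1869 in P2WT, and at 10211 ± 2949 in P2H2KO and 9039 ± 1995 in P2H2WT (SD, n = 4 each). The log2 fold changes were -0.01 (SE 0.31) and 0.18 (SE 0.23). Lcn2, which binds bacterial siderophores, was at 2986 ± 1374 against 3037 ± 677 CPM in the first line and 4014 ± 1088 against 3585 ± 761 in the second. Hp, haptoglobin, which binds free haemoglobin, was at 923 ± 349 against 980.2 ± 151 CPM in the first line and 1164 ± 197 against 1064 ± 117 in the second. None of the 3 passed the adjusted test of edgeR in either line. The chaperones that load ferritin had smaller SDs: Pcbp1 was at 370 ± 13.7 against 366 ± 10.7 CPM in the first line and Pcbp2 at 492 ± 11.8 against 497 ± 9.54. Ncoa4, the receptor that takes ferritin to the lysosome, was at 147 ± 4.39 against 148 ± 13.1 CPM in the first line and 147 ± 17.7 against 155 ± 11.2 in the second.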
